A study of Mus musculus with 4 samples.

Results

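Semaphorins, plexins, neuropilins, Eph receptors and ephrins were examined in whole spinal cord of mice at postnatal day 8. The members were all gene symbols of these families in the deposited tables, namely 20 semaphorins of classes 3 to 7, 9 plexins, 2 neuropilins, 14 Eph receptors and 8 ephrins. They make up 53 of the 22096 gene symbols listed. RNA sequencing had been done on 2 cKO libraries, from cords of genotype Chd7f/f; Olig1-cre, and on 2 Ctrl libraries, from cords of genotype Chd7f/+; Olig1-cre. Cre recombinase from the Olig1 locus, which is active in the oligodendrocyte lineage, was thus present in both groups, and the Ctrl animals carried 1 floxed Chd7 allele of their own. The strain background is given as mixed. Whether the libraries of a group stem from different animals is not stated in the labels, so the tests speak of these libraries only. Their p-values and standard errors rest mostly on a spread between libraries pooled over genes. A gene's own spread had 2 degrees of freedom, against 36.3 from the other genes. The series concerns the chromatin remodeler CHD7 and its partner Sox10 in the timing of myelination.

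Semaphorins are guidance signals. Those of class 3 are secreted and act mostly through neuropilins, which bind the ligand, and A-type plexins, which carry the signal into the cell. Those of classes 4 to 7 are held at the cell membrane and mostly bind plexins directly. Eph receptors are tyrosine kinases that bind ephrins on neighbouring cells, ephrin-A by a lipid anchor and ephrin-B as transmembrane proteins, and signals pass in both directions. In spinal cord these families steer axons, and several are also made by cells of the oligodendrocyte lineage and by myelin.

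Levels are given as FPKM, fragments per kilobase of transcript scaled to the mapped fragments of the library, summed over the transcripts of a gene, so that they can be compared between genes. Fold changes are differences of log2(FPKM + 1), cKO minus Ctrl, with the standard error (SE) of limma, and adjusted p-values are over all 12913 genes with a mean of at least 1 FPKM. Rose and fell are used at an adjusted p under 0.05. Relative sequencing depth was 2.22 and 3.19 in cKO 1 and cKO 2, against 2.07 and 1.0 in Ctrl 1 and Ctrl 2. Chd7 itself was at 2.52 and 3.38 FPKM in cKO cords, against 3.52 and 3.12 FPKM in Ctrl cords, and did not pass (adjusted p = 0.657). Since the labels do not name the floxed exon and whole cord holds many cells that never expressed Olig1, the Chd7 sum is a weak check of genotype. The Y-linked gene Ddx3y was at 0.195 and 11.6 FPKM in cKO 1 and cKO 2, against 0.144 and 0.0720 FPKM in Ctrl 1 and Ctrl 2, and Xist, made from the inactive X chromosome, was at 19.6 and 0.233 FPKM in cKO 1 and cKO 2, against 55.6 and 51.8 FPKM in Ctrl 1 and Ctrl 2. The cKO libraries thus differed from each other in transcripts of the sex chromosomes. Xist was lower in both cKO libraries than in both Ctrl libraries (limma adjusted p = 3.52e-06). The cKO libraries differed widely from each other in Xist, at 9.94 ± 13.7 FPKM (SD, n = 2). This p-value rests mostly on a spread pooled over genes. Ddx3y passed as higher in cKO (limma adjusted p = 0.003), but this rests on cKO 2, since cKO 1 was near the Ctrl libraries. Myelinating oligodendrocyte markers were present at high level, with 10 markers summing to 6624 and 10364 FPKM in cKO cords and to 16168 and 18454 FPKM in Ctrl cords.

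Of the 53 members, 47 had a mean of at least 1 FPKM and were tested. In cKO cords 7 rose (Efna3, Sema4b, Nrp2, Epha8, Plxna1, Epha10 and Ephb2) and 7 fell (Plxnb3, Sema3b, Sema6a, Sema3d, Sema4d, Sema5a and Sema4c). Together they are 29.8% of the tested members, against 10.7% of all genes tested, and by direction 14.9% rose and 14.9% fell, against 4.13% and 6.54% of all genes. The median log2 fold change of the tested members was 0.11, against -0.003 over all genes tested. Semaphorins, of which 19 were tested, gave 6 of the falls and 1 of the rises. Eph receptors, of which 10 were tested, gave 3 rises and no fall. The median log2 fold changes of these families were alike, at 0.111 and 0.135, and 10 semaphorins lay above 0 and 9 below. The other falling gene was a plexin. Both cKO libraries lay above both Ctrl libraries in 21 members (44.7%, against 24.3% of all genes) and below them in 11 (23.4%, against 29.3%). All 14 kept their sign when any 1 library was left out. The calls other than those of Plxnb3 and Sema3b depended on cKO 1, and several also on another library. The number of calls over all genes changed as well when 1 library was left out. No member passed when all transcript rows were summed, when no filter on low values was set or when each member was counted by its most abundant transcript. Under these settings 23 genes, 22 genes and 5 transcripts rose in all, and 30, 33 and 13 fell. The members under 1 FPKM were Efna4, Epha1, Epha2, Epha3, Epha6 and Sema3g, whose libraries ranged between 0.359 and 1.08 FPKM.

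**Figure D1:**
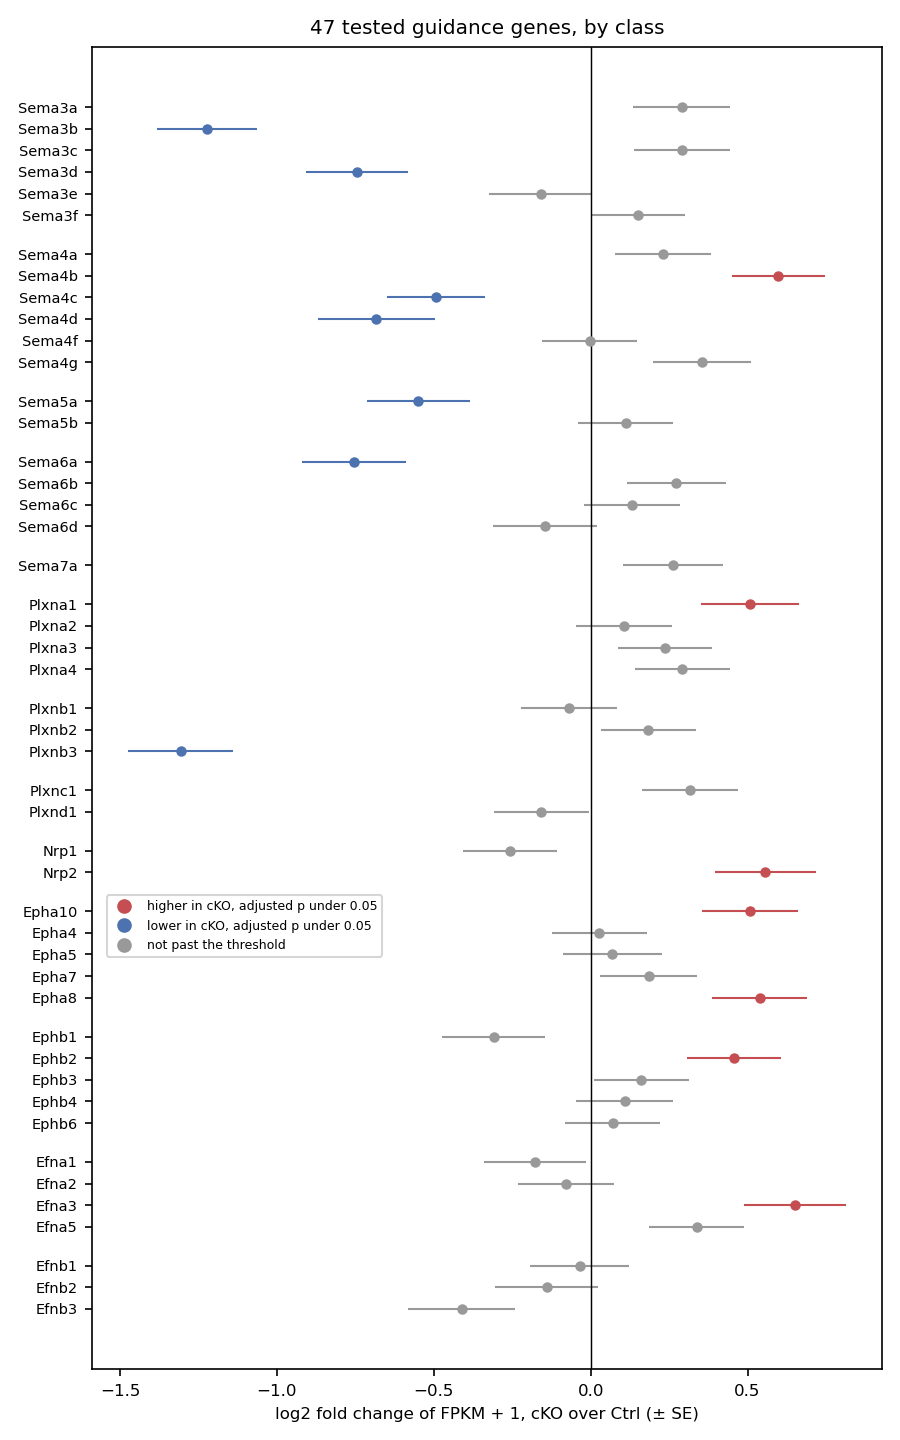
Log2 fold change of FPKM + 1, cKO over Ctrl, for the 47 tested members grouped by class, with bars of 1 SE. The 7 genes past the threshold to the left lie between -1.31 and -0.49, the 7 to the right lie between 0.46 and 0.65, and 33 did not pass.

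Upstream sequence was searched for the hexamers ACAAAG and ACAATG, which SOX factors are known to bind, because Sox10 is named with CHD7 in the study. It is shown for Plxnb3 and Sema3d, chosen as the members that fell with the most matches, and for 1 of the 2 windows of Efna3, the member with the highest positive fold change. The windows are the 250 bases before the RefSeq start on GRCm38.p6, 5′ to 3′ on the strand of the gene, with matches to either hexamer on either strand in capitals. They are chrX:73756853-73757102 on the plus strand for Plxnb3, chr5:12382916-12383165 on the plus strand for Sema3d and chr3:89322940-89323189 on the minus strand for Efna3.
Plxnb3: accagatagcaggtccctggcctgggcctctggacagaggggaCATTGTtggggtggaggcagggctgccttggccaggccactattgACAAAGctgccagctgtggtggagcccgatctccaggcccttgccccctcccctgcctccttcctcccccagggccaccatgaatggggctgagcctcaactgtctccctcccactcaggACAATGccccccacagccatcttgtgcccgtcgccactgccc
Sema3d: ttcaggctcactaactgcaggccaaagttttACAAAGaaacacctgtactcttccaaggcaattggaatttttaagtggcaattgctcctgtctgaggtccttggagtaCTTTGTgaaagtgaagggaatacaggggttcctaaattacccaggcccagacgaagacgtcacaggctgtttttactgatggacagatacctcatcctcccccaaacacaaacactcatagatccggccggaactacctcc
Efna3: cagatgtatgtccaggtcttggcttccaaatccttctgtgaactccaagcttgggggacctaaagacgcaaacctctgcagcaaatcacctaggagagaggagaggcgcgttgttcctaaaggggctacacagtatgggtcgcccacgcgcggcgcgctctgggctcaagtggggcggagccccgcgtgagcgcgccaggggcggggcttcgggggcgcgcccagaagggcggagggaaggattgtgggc

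The Plxnb3 window held 3 matches, which begin 207, 162 and 42 bases before the start, and the Sema3d window held 2, at 219 and 141 bases. Neither Efna3 window held one. Such matches are short and common. Of 32851 windows of this length in the RefSeq table, 25.2% held 1 or the other hexamer, against 18% of the 61 windows of the 47 members found in the table. The table held 8 windows for 5 of the 7 members that fell, and 3 of these held a match, in Plxnb3, Sema3d and 1 of the 3 windows of Sema4d. The windows of Sema4c and Sema5a held none. For 6 of the 7 members that rose it also held 8 windows, and 0 of these held a match. Several windows can belong to 1 gene. The E-box CANNTG was present in 5 of 8 windows in each of these groups and in 66.2% of all windows. A match is a string of letters and no evidence of binding, and a window without one says nothing of the factor.

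Plxnb3 showed the fall with the smallest adjusted p among the members. It encodes plexin-B3, a receptor for Sema5A that is known from oligodendrocytes. Its level (chromosome X, 71002442 to 71017849 on mm9, 1 transcript) was 8.85 and 13.5 FPKM in cKO 1 and cKO 2, against 26.9 and 30.3 FPKM in Ctrl 1 and Ctrl 2. Both cKO libraries lay well below both Ctrl libraries. The means were 11.2 ± 3.29 FPKM in cKO and 28.6 ± 2.38 FPKM in Ctrl (SD, n = 2 each). The log2 fold change was -1.31 ± 0.17 (SE, limma adjusted p = 5.66e-07). It stayed past the threshold without any 1 of the libraries, with log2 fold changes between -1.59 and -1.03. Plxnb3 is X-linked, and Xist was lower in both cKO libraries than in both Ctrl libraries, though the cKO libraries differed widely in Xist. The part of sex in the Plxnb3 difference was not tested.

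The other B-type plexins did not pass the test. Plxnb1, the receptor of Sema4D, was at 13.6 and 15.4 FPKM in cKO cords, against 14.5 and 16.0 FPKM in Ctrl cords, and the groups overlapped (log2 fold change -0.07 ± 0.15, limma adjusted p = 0.831). Plxnb2 was at 15.0 and 15.0 FPKM in cKO cords and at 13.1 and 13.1 FPKM in Ctrl cords (log2 fold change 0.18 ± 0.15, limma adjusted p = 0.497). Plxnb3 thus made up 23.6% and 30.7% of the summed B-type plexin FPKM in cKO cords, against 49.4% and 51.0% in Ctrl cords. The sum of all B-type plexins was 37.5 and 43.9 FPKM in cKO cords and 54.6 and 59.4 FPKM in Ctrl cords, while Plxnb1 and Plxnb2 alone summed to 28.7 and 30.4 FPKM in cKO cords and to 27.6 and 29.1 FPKM in Ctrl cords.

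**Figure D2:**
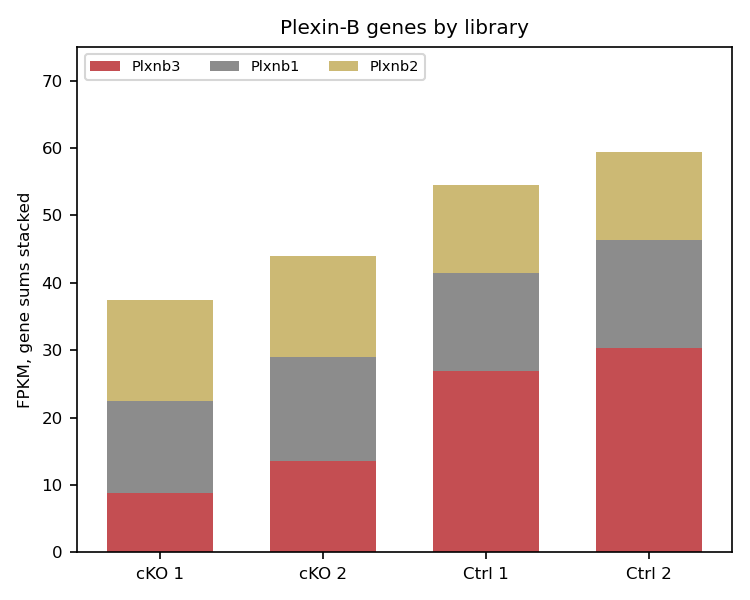
FPKM of the plexin-B genes stacked for each library. The Plxnb3 part is 8.85 and 13.5 FPKM in the cKO libraries and 26.9 and 30.3 FPKM in the Ctrl libraries, beside Plxnb1 and Plxnb2 parts between 13.1 and 16.0 FPKM in all libraries.

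The transmembrane semaphorins that fell are Sema6a, Sema4d, Sema5a and Sema4c. Sema6a, a ligand of plexin-A2 and plexin-A4 (chromosome 18, 47404908 to 47528522), was at 16.2 and 22.6 FPKM in cKO cords, against 32.7 and 33.2 FPKM in Ctrl cords. The Ctrl libraries lay close together and both cKO libraries below them. Its means were 19.4 ± 4.49 FPKM in cKO and 33.0 ± 0.304 FPKM in Ctrl (SD, n = 2 each), and its log2 fold change was -0.75 ± 0.16 (limma adjusted p = 0.00162).

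Sema4d, which binds plexin-B1 and is made by oligodendrocytes (chromosome 13, 51796617 to 51889013), was at 24.8 and 42.8 FPKM in cKO 1 and cKO 2, against 53.6 and 52.4 FPKM in the Ctrl libraries. The cKO libraries differed widely from each other. The log2 fold change was -0.68 ± 0.19 (limma adjusted p = 0.0120). This SE and p-value of Sema4d rest mostly on the spread pooled over genes. Sema5a, a ligand of plexin-B3 and plexin-A proteins (chromosome 15, 32174568 to 32626096), was at 11.8 and 16.5 FPKM in cKO cords and at 22.5 and 19.4 FPKM in Ctrl cords (log2 fold change -0.55 ± 0.16, limma adjusted p = 0.0224). Sema4c, a ligand of plexin-B2 (chromosome 1, 36605487 to 36615226), was at 5.78 and 7.86 FPKM in cKO cords and at 10.2 and 9.67 FPKM in Ctrl cords (log2 fold change -0.49 ± 0.16, limma adjusted p = 0.0332). The groups did not overlap in any of these genes, and cKO 1 was below cKO 2 in each. Without cKO 1 none of these 4 semaphorins passed, with limma adjusted p = 0.198 for Sema6a, 0.716 for Sema4d, 0.637 for Sema5a and 0.691 for Sema4c. Their log2 fold changes were then -0.53 for Sema6a, -0.30 for Sema4d, -0.32 for Sema5a and -0.30 for Sema4c, and that of Sema4d was -1.07 without cKO 2. Without Ctrl 1, Sema5a and Sema4c did not pass (limma adjusted p = 0.135 and 0.0838).

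**Figure D3:**
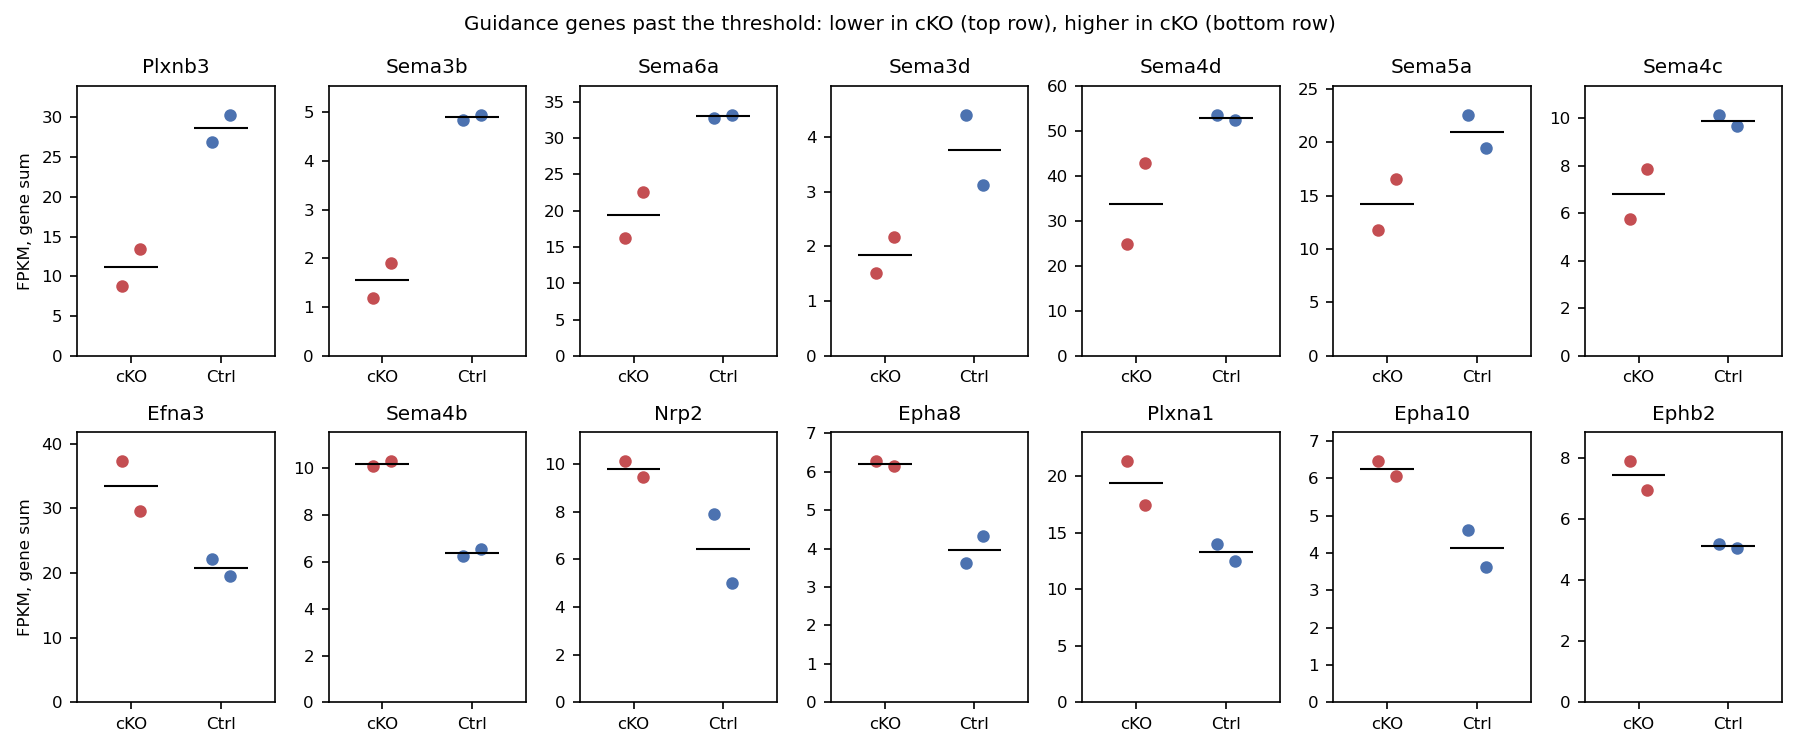
FPKM in each library (points) with the group mean (line) for the 14 members past the threshold, cKO left and Ctrl right, each panel with its own axis from 0. The groups do not overlap in any panel, and Sema4d shows the wide gap between its cKO libraries, 24.8 and 42.8 FPKM.

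The secreted semaphorins that fell are Sema3b and Sema3d, both of low level. Sema3b, a neuropilin ligand, was at 1.19 and 1.90 FPKM in cKO cords, against 4.85 and 4.94 FPKM in Ctrl cords. Its means were 1.55 ± 0.50 FPKM in cKO and 4.89 ± 0.0671 FPKM in Ctrl (SD, n = 2 each). The log2 fold change was -1.22 ± 0.16 (limma adjusted p = 7.64e-07), and it passed without any 1 of the libraries, between -1.42 and -1.02. Sema3b and Plxnb3 were the members in which both cKO libraries lay at least 1.5-fold below both Ctrl libraries on the scale of FPKM + 1 (2 of 47, or 4.26%, against 1.69% of all genes tested). None lay above by as much (0.48% of all genes).

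Sema3d was at 1.51 and 2.17 FPKM in cKO cords, against 4.40 and 3.13 FPKM in Ctrl 1 and Ctrl 2 (log2 fold change -0.74 ± 0.16, limma adjusted p = 0.00167). It lost its call without cKO 1 (limma adjusted p = 0.138). The mean depth over the Sema3d transcript was 2.24 reads per base in Ctrl 2, the shallowest library, and 3.54 over the Sema3b transcripts. In cKO 1 it was 2.40 over Sema3d and 1.90 over Sema3b, so these levels rest on low depth in both libraries.

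The semaphorin genes near them on the chromosome did not pass the test. Sema3f lies near Sema3b on chromosome 9 (107583833 to 107612806, against 107500446 to 107511572 for Sema3b). It was at 5.08 and 4.70 FPKM in cKO cords and at 4.19 and 4.43 FPKM in Ctrl cords (limma adjusted p = 0.593). On chromosome 5, Sema3d starts at 12383166, Sema3a at 13399309, Sema3e at 14025276 and Sema3c at 17080634. Sema3a, the repellent for which neuropilin-1 is the receptor, was at 6.78 and 6.62 FPKM in cKO cords, against 6.09 and 4.60 FPKM in Ctrl cords (log2 fold change 0.29 ± 0.15, limma adjusted p = 0.246). Sema3c was at 6.50 and 6.40 FPKM in cKO cords and at 5.73 and 4.50 FPKM in Ctrl cords (limma adjusted p = 0.237). Sema3e overlapped between the groups, at 1.26 and 1.68 FPKM in cKO cords and 2.09 and 1.44 FPKM in Ctrl cords.

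Sema4b was the semaphorin that rose. It is a transmembrane protein (chromosome 7, 87331727 to 87371410) and was at 10.1 and 10.3 FPKM in cKO cords, against 6.23 and 6.55 FPKM in Ctrl cords. The libraries of each group lay close together. Its means were 10.2 ± 0.137 FPKM in cKO and 6.39 ± 0.226 FPKM in Ctrl (SD, n = 2 each), and its log2 fold change was 0.60 ± 0.15 (limma adjusted p = 0.00579). Without cKO 1 it did not pass (limma adjusted p = 0.0793), at a log2 fold change of 0.61. Class 4 therefore held members that moved in opposite directions, and the class sum was 97.0 and 111.6 FPKM in cKO cords and 112.4 and 116.2 FPKM in Ctrl cords.

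Among the other semaphorins, the most abundant did not pass. Sema6d was at 27.6 and 34.9 FPKM in cKO cords and 36.0 and 32.9 FPKM in Ctrl cords, with overlapping groups (limma adjusted p = 0.647). Sema7a, which is anchored by a lipid, was at 33.2 and 28.4 FPKM in cKO cords and 25.4 and 25.4 FPKM in Ctrl cords (log2 fold change 0.26 ± 0.16, limma adjusted p = 0.326). Sema4a, Sema4g, Sema6b, Sema6c, Sema4f and Sema5b, with means between 7.50 and 23.1 FPKM over the libraries, had log2 fold changes between -0.003 and 0.35, and none passed.

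The receptors that rose are Nrp2 and Plxna1. Nrp2 encodes neuropilin-2, which binds Sema3F and forms of VEGF (chromosome 1, 62749891 to 62865266, 6 transcripts). It was at 10.1 and 9.44 FPKM in cKO cords, against 7.88 and 5.03 FPKM in Ctrl 1 and Ctrl 2, so the Ctrl libraries differed more from each other than the cKO libraries did. The log2 fold change was 0.56 ± 0.16 (limma adjusted p = 0.0198), and without Ctrl 2 it was 0.28 and did not pass (limma adjusted p = 0.367), nor did it without cKO 1 (limma adjusted p = 0.202). Without Ctrl 1 the log2 fold change was 0.84. Nrp1, the partner receptor, was at 7.01 and 7.42 FPKM in cKO cords, against 9.22 and 8.41 FPKM in Ctrl cords (log2 fold change -0.26 ± 0.15, limma adjusted p = 0.303).

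Plxna1, which signals with neuropilins for class 3 semaphorins (chromosome 6, 89266308 to 89312607), was at 21.3 and 17.4 FPKM in cKO cords, against 14.0 and 12.5 FPKM in Ctrl cords. The log2 fold change was 0.51 ± 0.16 (limma adjusted p = 0.0277), and it lost its call without cKO 1 (limma adjusted p = 0.521) and without Ctrl 2 (limma adjusted p = 0.136). Plxna2, Plxna3 and Plxna4 had positive log2 fold changes between 0.10 and 0.29 and did not pass, the lowest limma adjusted p being 0.236. The A-type plexins summed to 46.1 and 42.4 FPKM in cKO cords and to 36.3 and 32.7 FPKM in Ctrl cords, and the groups did not overlap. Plxnc1, a receptor of Sema7A, was at 4.51 and 4.19 FPKM in cKO cords and 3.65 and 2.96 FPKM in Ctrl cords (limma adjusted p = 0.193). Plxnd1, the receptor of Sema3E, was at 3.98 and 4.44 FPKM in cKO cords and at 4.76 and 4.83 FPKM in Ctrl cords (limma adjusted p = 0.573).

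Ligand and receptor levels can be set side by side on this scale. Sema5a and its receptor Plxnb3 were both lower in cKO cords, at 14.2 ± 3.33 and 11.2 ± 3.29 FPKM in cKO, against 21.0 ± 2.21 and 28.6 ± 2.38 FPKM in Ctrl (SD, n = 2 each). Sema4d was lower while its receptor Plxnb1 did not pass. Sema6a was lower while its receptors Plxna2 and Plxna4 did not pass. Whether the ligand and the receptor were made by the same cells was not measured in whole cord.

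Eph receptors that rose are Epha8, Epha10 and Ephb2, all encoded on chromosome 4. Epha8 (136485334 to 136512731) was at 6.27 and 6.14 FPKM in cKO cords, against 3.62 and 4.33 FPKM in Ctrl cords (log2 fold change 0.54 ± 0.15, limma adjusted p = 0.0155). Ephb2, a receptor of ephrin-B that acts in axon guidance and at synapses, lies near Epha8 (136209525 to 136391850). It was at 7.87 and 6.95 FPKM in cKO cords, against 5.18 and 5.06 FPKM in Ctrl cords (log2 fold change 0.46 ± 0.15, limma adjusted p = 0.0422). Epha10, whose kinase domain is known to lack activity (124559029 to 124563752), was at 6.45 and 6.05 FPKM in cKO cords, against 4.62 and 3.63 FPKM in Ctrl cords (log2 fold change 0.51 ± 0.15, limma adjusted p = 0.0254). The groups did not overlap in any of these genes.

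These Eph calls were near the threshold. Without cKO 1, the limma adjusted p was 0.191 for Epha8, 0.506 for Ephb2 and 0.297 for Epha10, and without cKO 2 it was 0.0679, 0.0749 and 0.0704. Epha8 also did not pass without Ctrl 1 (limma adjusted p = 0.103), Epha10 without Ctrl 2 (limma adjusted p = 0.185), and Ephb2 without Ctrl 1 (0.0713) or Ctrl 2 (0.0924).

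The other Eph receptors did not pass. Ephb1, the most abundant, was at 18.8 and 25.3 FPKM in cKO cords, against 29.0 and 25.7 FPKM in Ctrl cords (log2 fold change -0.31 ± 0.16, limma adjusted p = 0.246). Epha4, which binds ephrins of both kinds and acts in the crossing of axons at the spinal midline, was at 9.28 and 8.23 FPKM in cKO cords and 9.23 and 7.93 FPKM in Ctrl cords. Its groups overlapped (log2 fold change 0.03 ± 0.15, limma adjusted p = 0.942). Epha5, Epha7, Ephb3, Ephb4 and Ephb6 had log2 fold changes between 0.07 and 0.18. The A-type receptors summed to 33.5 and 33.4 FPKM in cKO cords and 30.3 and 26.1 FPKM in Ctrl cords, and the B-type receptors to 47.2 and 51.2 FPKM in cKO cords and 52.1 and 49.4 FPKM in Ctrl cords.

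Efna3, a lipid-anchored ligand of A-type Eph receptors, was the ephrin that rose. It was at 37.3 and 29.6 FPKM in cKO cords, against 22.1 and 19.5 FPKM in Ctrl cords, with means of 33.4 ± 5.43 FPKM in cKO and 20.8 ± 1.87 FPKM in Ctrl (SD, n = 2 each). The log2 fold change was 0.65 ± 0.16 (limma adjusted p = 0.00579), and it lost its call without cKO 1 (limma adjusted p = 0.260) and without Ctrl 2 (limma adjusted p = 0.0571). On chromosome 3 it lies between Efna1 and Efna4, at 89118873 to 89126801, with Efna1 at 89075652 to 89084873 and Efna4 at 89137315 to 89141950. Efna1 was at 2.11 and 2.94 FPKM in cKO cords and 2.51 and 3.46 FPKM in Ctrl cords, with overlapping groups. Efna4, below the level tested, was at 0.954 and 0.743 FPKM in cKO cords and 0.400 and 0.575 FPKM in Ctrl cords.

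Efnb3, a ligand of EphA4 at the spinal midline that is also known from myelin as an inhibitor of axon growth, had the highest mean level of all members. It was at 46.8 and 51.3 FPKM in cKO cords, against 63.9 and 67.1 FPKM in Ctrl cords. The groups did not overlap, and the log2 fold change of -0.41 ± 0.17 did not pass (limma adjusted p = 0.121). Efnb1 and Efnb2 were between 1.41 and 4.41 FPKM in all libraries, with overlapping groups. Efna2 and Efna5 did not pass either, at log2 fold changes of -0.08 and 0.34.

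Markers of cell types moved in the same libraries. All 7 members that fell were lower in cKO 1 than in cKO 2, an order that was not counted over all called genes. Over all genes tested, cKO 1 correlated less with Ctrl 1 and Ctrl 2 (0.967 and 0.972) than cKO 2 did (0.98 and 0.979). The 10 markers of myelinating oligodendrocytes, 9 of which fell, summed to 38.3% of the Ctrl mean in cKO 1 and 59.9% in cKO 2. Plxnb3 stood at 30.9% and 47.2% of its Ctrl mean, Sema6a at 49.2% and 68.5% and Sema4d at 46.8% and 80.8% in cKO 1 and cKO 2. The 7 oligodendrocyte precursor markers (3 fell, 1 rose) summed to 62.6% and 75.9%, yet their median log2 fold change was 0.13. Gpr17, Neu4 and Vcan fell, and Gpr17 alone was at 32.9 and 39.4 FPKM in cKO cords, against 107 and 114 FPKM in Ctrl cords. The sum of the 7 was 138 and 167 FPKM in cKO cords and 221 and 220 FPKM in Ctrl cords. The sum therefore does not show a fall of precursor markers as a set. Cacng4 rose, and Pdgfra, Cspg4 and Ptprz1 did not pass, at log2 fold changes of 0.22, 0.26 and 0.13. In bulk tissue, fewer cells of a type and less RNA per cell cannot be told apart.

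The 7 neuron markers, of which 1 rose, summed to 152% and 124% of the Ctrl mean in cKO 1 and cKO 2. Of the 7 members that rose, 6 were higher in cKO 1 than in cKO 2, an order likewise not counted over all called genes. Markers of meninges and fibroblasts (6 of 8 tested fell) summed to 35.5 and 38.1 FPKM in cKO cords, against 263.8 and 58.2 FPKM in Ctrl 1 and Ctrl 2. The 6 Schwann cell markers, which include Sox10, shared with oligodendrocytes, summed to 55.6 and 69.9 FPKM in cKO cords, against 172 and 115 FPKM in Ctrl 1 and Ctrl 2. Sema3b was even between the Ctrl libraries, at 99.0% and 101% of their mean, where the meningeal sum was at 164% and 36.1%. Sema3d was at 117% and 83.1%. The astrocyte markers (1 of 6 rose) summed to 55.9% and 90.6% of the Ctrl mean in cKO 1 and cKO 2. Gfap was the largest part of this sum, at 351 and 723 FPKM in cKO cords and 758 and 938 FPKM in Ctrl cords. It did not pass (limma adjusted p = 0.0965). Slc1a3 rose, at a log2 fold change of 0.62. Aldh1l1, Aqp4, Slc1a2 and Gja1 did not pass, at 0.0, -0.51, -0.22 and -0.20. The microglia markers (3 of 5 fell) summed to 72.3% and 65.4% of the Ctrl mean in cKO 1 and cKO 2. None of the 7 endothelial and mural cell markers passed. Of ependymal markers 2 of 4 rose and 1 fell, of sensory ganglion markers 1 of 3 tested rose, and of skeletal muscle markers 0 of 2 tested passed. The part of these cell types in the changes of members was not tested.

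**Figure D4:**
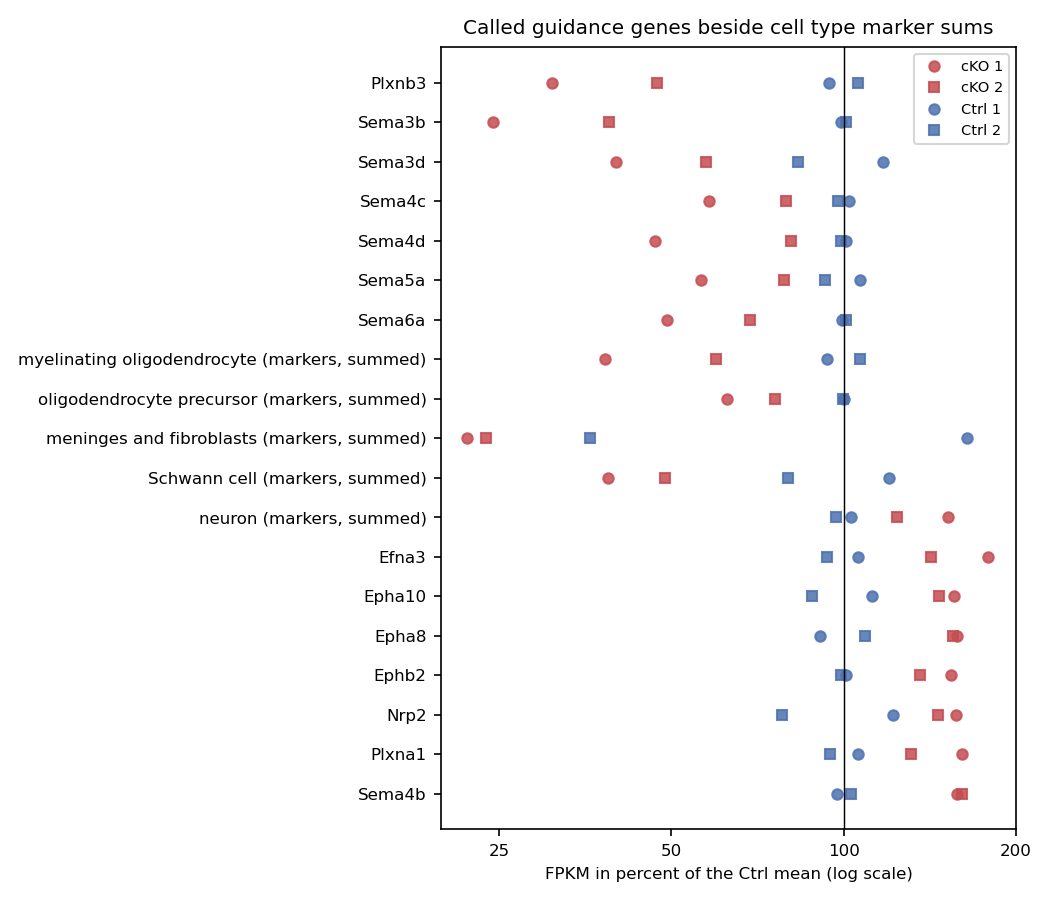
FPKM in percent of the Ctrl mean, on a log axis, for the 14 members past the threshold and for the summed markers of 5 cell types, with 1 point per library. In the 7 members that fell and in each marker sum shown except that of neurons, cKO 1 lies left of cKO 2 and both lie left of the Ctrl libraries. Gpr17 is the largest part of the oligodendrocyte precursor sum in the Ctrl libraries. Gpr17, Neu4 and Vcan fell, while Cacng4, Cspg4, Pdgfra and Ptprz1 had positive log2 fold changes. The astrocyte sum, which is not drawn, has the same order (55.9% and 90.6% in cKO 1 and cKO 2, against 95.7% and 104% in Ctrl 1 and Ctrl 2). Its largest part is Gfap, which did not pass, and the only astrocyte marker past the threshold, Slc1a3, rose. The meningeal sum separates Ctrl 1 (164%) from Ctrl 2 (36.1%).

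Transcripts of 1 gene share reads, so their levels are estimates by the authors' software. Across the 13 members with several transcripts, the clearest difference was in Ephb6, chosen after its values were seen. EphB6 is a receptor without kinase activity, and its summed level overlapped between groups, at 13.5 and 12.2 FPKM in cKO cords and 12.1 and 12.3 FPKM in Ctrl cords. The transcript NM_007680, of 3756 bases, was at 0.00140 and 0.00164 FPKM in cKO cords, against 2.98 and 3.83 FPKM in Ctrl cords. The transcript NM_001146351, of 3760 bases, was at 13.5 and 12.2 FPKM in cKO cords, against 9.07 and 8.50 FPKM in Ctrl cords. NM_007680 was the 1 of 59 member transcripts to pass in a fit of 15236 single transcripts (log2 fold change -2.13 ± 0.21, limma adjusted p = 0.0491), in which 0.118% of transcripts passed.

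Sema6d, whose summed level did not pass, was also chosen after its values were seen. The transcript NM_199240 was at 5.50 and 5.36 FPKM in cKO cords, against 12.7 and 11.0 FPKM in Ctrl cords, or 20.0% and 15.4% of the gene against 35.2% and 33.4%. It did not pass over all transcripts (log2 fold change -0.99 ± 0.14, limma adjusted p = 0.0978). NM_199241 was at 8.94 and 13.0 FPKM in cKO cords and 8.74 and 6.98 FPKM in Ctrl cords. In Nrp2, NM_001077404 and NM_001077407 held most of the level, and NM_001077405 was at 1.74 and 2.26 FPKM in cKO cords and at 1.3e-05 and 0.722 FPKM in Ctrl cords.

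**Figure D5:**
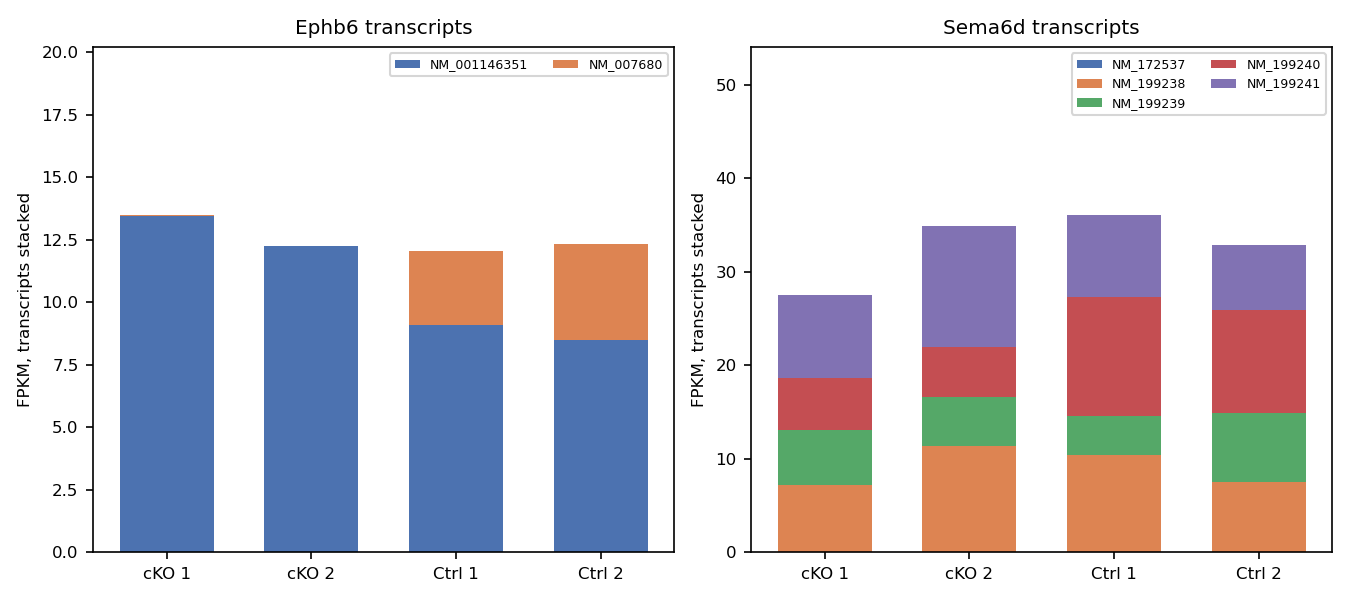
FPKM of the transcripts of Ephb6 and Sema6d stacked for each library. The Ephb6 transcript NM_007680 appears in the Ctrl libraries, at 2.98 and 3.83 FPKM, and the Sema6d transcript NM_199240 is at 5.50 and 5.36 FPKM in cKO and 12.7 and 11.0 FPKM in Ctrl.

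Of 47 intracellular effectors tested, which act downstream of these receptors, 3 rose and 2 fell, with a median log2 fold change of 0.01. That is 10.6% of the effectors, a share near the 10.7% of all genes. The 3 that rose belong to the collapsin response mediators, which couple semaphorin signals to microtubules, and the other members of that family, Dpysl2 and Dpysl4, did not pass (log2 fold changes 0.04 and 0.31, limma adjusted p = 0.922 and 0.240). Crmp1 was at 128 ± 22.3 FPKM in cKO and 69.2 ± 3.40 FPKM in Ctrl (SD, n = 2 each; log2 fold change 0.87 ± 0.19, limma adjusted p = 0.00128), Dpysl3 had a log2 fold change of 0.75 ± 0.18 and Dpysl5 of 0.56 ± 0.16. The small GTPase Rras2 and the kinase Rock1 fell, with log2 fold changes of -0.77 ± 0.16 and -0.69 ± 0.15. The number of effectors called changed when 1 library was left out, as it did over all genes.

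Of 25 tested genes of other guidance families, 3 rose and 2 fell, with a median log2 fold change of 0.27. That is 20.0% in either direction, against 10.7% of all genes, and the 8.0% that fell are near the 6.54% of all genes. Ntn1, the netrin of the spinal midline, was at 14.6 and 14.6 FPKM in cKO cords, against 9.70 and 8.35 FPKM in Ctrl cords (log2 fold change 0.64 ± 0.15, limma adjusted p = 0.00365). Slit1, a ligand of Robo receptors, and the adhesion molecule Dscaml1 also rose, by 0.54 and 0.50 on the log2 scale. Unc5b, a netrin receptor, was at 5.06 and 7.75 FPKM in cKO cords, against 12.2 and 12.2 FPKM in Ctrl cords (log2 fold change -0.86 ± 0.16, limma adjusted p = 2.65e-04), and Ntn4 fell by 0.48. These calls depended on cKO 1. Their number also changed when another library was left out, as it did over all genes.

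Of 11 tested co-receptors and partners, L1cam and Rtn4r rose and Mag fell, 27.3% in either direction, against 10.7% of all genes. The list is short, so 1 gene is 9.09% of it. L1cam, a co-receptor of neuropilin-1 for Sema3A, had a log2 fold change of 0.56 ± 0.16 (limma adjusted p = 0.0174), and Rtn4r, the Nogo receptor, of 0.59 ± 0.17 (limma adjusted p = 0.0149). Mag, a myelin protein, had -1.02 ± 0.25 (limma adjusted p = 0.00455). All of these calls depended on cKO 1, and some also on Ctrl 1 or Ctrl 2. The number of calls over all genes changed as well when 1 library was left out.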

How the data were processed

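Transcript levels were measured by RNA sequencing in 2 cKO and 2 Ctrl libraries of spinal cord. RNA was extracted with Trizol and sequenced from TruSeq RNA libraries, per the labels' protocols. The deposited tables give FPKM and coverage, a signal of mean read depth per base, for 28107 RefSeq transcripts, per the file headers. The tools CASAVA, TopHat, Cufflinks and Cuffdiff and the build mm9 are listed, without versions, per the submitters' processing notes. Coverage over FPKM is constant within a library and gave relative depth. No read total was used here.

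Tables were merged by transcript, gene, position and length, 315 rows with a status other than OK were left out, and FPKM was summed per symbol over rows of at least 300 bases. Gene sums with a mean of at least 1 FPKM were tested as log2(FPKM + 1) with limma 3.58.1 (R 4.3.3). The design had genotype as its only term, variances were moderated with a trend on the mean, and the Benjamini-Hochberg adjustment ran over all genes tested. Alternatives changed the filter, pseudocount, scaling, moderation, test unit, replicate block or libraries. A gene's spread had 2 degrees of freedom of its own and 36.3 from the other genes. A fold change on this scale understates the change of low genes. The script was tested on simulated data. Members, lists and the use of gene sums were chosen with earlier results of these data known. Named genes are members past the threshold, the most abundant member of each class, and up to 4 per direction of each further list, with other members added for completeness. Files give mm9 coordinates, with starts raised by 1, and upstream windows are RefSeq on GRCm38.p6. Older symbols of 3 list genes were matched by accession.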

Additional observations from a re-analysis of the deposited data

How the results depend on the processing

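All 14 members past the threshold kept their sign under all 17 alternatives, and Plxnb3 and Sema3b passed under 14 of them. Members that rose and fell numbered 1 and 3 with TPM scaling, 4 and 4 with median-of-ratios scaling, and 5 and 4 with quantile scaling. They numbered 0 and 0 with all rows summed, with no filter and with single transcript rows (each member by its most abundant transcript), where the prior degrees of freedom were 4.15, 4.11 and 3.82 against 36.3. Genes that rose and fell in all numbered 533 and 845, 198 and 402 with TPM scaling, 389 and 563 with median-of-ratios scaling, 303 and 414 with quantile scaling, 23 and 30 with all rows summed, 22 and 33 with no filter, and 5 and 13 with single transcript rows. Under these last 3 settings the effectors, other families and co-receptors had 0 in both directions. Other families had 1 rise and 1 fall with TPM scaling, 1 fall with median-of-ratios or quantile scaling, and 6 rises with robust moderation, which gave 4 falling effectors. Co-receptor rises were 0 with TPM or quantile scaling and 1 with median-of-ratios scaling. The median of members was 0.125 with a pseudocount of 0.1 and 0.159 with quantile scaling. The cause of these differences was not tested.

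Leaving out 1 library gave 0 to 5 members that rose and 2 to 7 that fell, 107 to 555 genes that rose and 277 to 900 that fell, 1 to 3 effectors in each direction, 0 to 6 other families that rose and 0 to 2 that fell, 0 to 2 co-receptors that rose and 0 to 1 that fell, and medians of members of 0.061 to 0.120. The lone library left in a group is then assumed to vary like the other group.

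Replicate numbers are shared between groups, but no label says that they pair animals. Deviations of cKO 1 and Ctrl 1 correlated at -0.241 over 12913 genes. With a replicate block, 4 members rose and 6 fell, 351 genes rose and 645 fell, and 1 other family gene fell. With the numbers crossed, an alternative chosen after seeing the data, 7 members rose and 8 fell, 943 genes rose and 1235 fell, and 5 effectors fell and 6 other family genes rose.

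With 2 libraries a group, the smallest p of an exact permutation test could not pass, and the calls rest on a spread pooled over genes. Ctrl 2 was the shallowest library, with a depth over a tested member as low as 1.04 reads per base. Samples were too few for a search for single outlying libraries.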
